A study of Arabidopsis thaliana with 24 samples.

Results

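The 6 genes described here make salicylic acid in Arabidopsis thaliana or switch on the genes that do. They are the isochorismate synthase gene ICS1 (AT1G74710, also named EDS16), the transporter gene EDS5 (AT4G39030), the amido transferase gene PBS3 (AT5G13320), the acyltransferase-family gene EPS1 (AT5G67160) and the transcription factor genes CBP60G (AT5G26920) and SARD1 (AT1G73805). They were chosen by locus identifier for their role in the pathway, not by a rule on their values, though earlier results of these data were known. They make up 6 of the 21407 loci counted. All 6 were abundant enough to be among the 21015 genes tested. ICS1 and SARD1 lie on chromosome 1, EDS5 on chromosome 4, and PBS3, EPS1 and CBP60G on chromosome 5.

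Salicylic acid is a plant hormone of defence against biotrophic pathogens. In infected Arabidopsis most of it is made from chorismate, which ICS1 turns into isochorismate in the plastid and EDS5 exports to the cytosol. There PBS3 joins isochorismate to glutamate, and the conjugate falls apart to salicylic acid, spontaneously or with the help of EPS1. CBP60G and SARD1 are related transcription factors that bind the promoter of ICS1, and of these CBP60G binds calmodulin.

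Whole 2-week-old seedlings of the accession Col-0 were sampled in 8 groups, with 3 biological replicates each. Wild-type seedlings (WT) and seedlings that overexpress ELENA1, a long noncoding RNA (OX), were taken at 0 h without peptide. Others were moved from solid to liquid medium holding 5 µM elf18 and harvested 1, 6 and 12 h later. The receptor kinase EFR of the plant perceives elf18, a fragment of the elongation factor EF-Tu of bacteria, and its addition mimics contact with them. Since no group analysed here was moved to liquid without the peptide, a comparison with 0 h holds elf18, the move and the hour of harvest together, and these cannot be told apart. Libraries of a condition were sequenced as a pool, per the labels' protocols. If each group was such a condition, a comparison of groups also holds the pool, and the pool cannot be told apart. Replicate spread within a pool does not cover that. The labels do not name the promoter of the overexpressor or how many lines it stands for, and ELENA1 itself was not analysed here.

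Polyadenylated RNA was sequenced, and libraries held between 18767661 and 85230211 counts. Replicate 3 was the shallow one in each group, at most 23645600, whereas replicates 1 and 2 had at least 33714756. FRK1, a receptor-like kinase gene that serves as a marker of elf18 perception, rose in WT from 14.57 ± 7.17 CPM at 0 h to 686.9 ± 71.8 CPM at 6 h (SD, n = 3). The 5 shoot photosynthesis markers summed to between 3712 and 32900 CPM, the 6 root markers to between 45.84 and 153.9 CPM, and the flower and seed markers in the table to at most 1.146 CPM. The shoot sum at 12 h was 3766 to 4559 CPM in WT and 3712 to 4241 CPM in OX, below every library of the other times, and its part in the results was not tested. CPM, the depth-normalised count, was scaled by TMM. The marker sums, and values where the text says so, were scaled by the library total.

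One library stood apart for these genes. In WT at 0 h, replicate 1 was above the mean of the other replicates by 1.27 in SARD1, 0.989 in PBS3 and 0.497 in ICS1 (log2), where the SD of this difference over all genes was 0.269. Of all genes, 99.9%, 99.7% and 98.1% had a smaller value than these. Where leaving this library out changed a call of the 6 genes, or moved a fold or ratio given for them by over 1.5 times, both values are given. Every adjusted p given for a gene is a Benjamini-Hochberg value from edgeR's quasi-likelihood test, called at 0.05, unless DESeq2 is named. It is taken over all 21015 genes in the main fit, and over the genes kept by each alternative in that alternative. Fold changes are log2 with their standard error (SE).

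All 6 genes reached their highest group mean in OX at 12 h, and all 6 were higher at 12 h than at 0 h in both genotypes. The background was high: of all genes, 35.2% rose and 37.4% fell at 12 h in WT, and 34.9% rose and 35.2% fell in OX. The median log2 fold change of the 6 genes was 2.66 in WT and 2.6 in OX, and that of all genes -0.0356 and -0.0173. In whole seedlings, more cells that express a gene and more RNA per cell cannot be told apart. What set the genes apart from each other was the path to 12 h. CBP60G rose within 1 h, EDS5 rose at 1 h and fell back at 6 h, and ICS1 and PBS3 were already above 0 h at 6 h. At 6 h SARD1 in WT and EPS1 in OX were also called above 0 h. PBS3 fell at 1 h in both genotypes, EPS1 fell at 1 h in WT, and most of the rise of SARD1 came after 6 h.

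**Figure D1:**
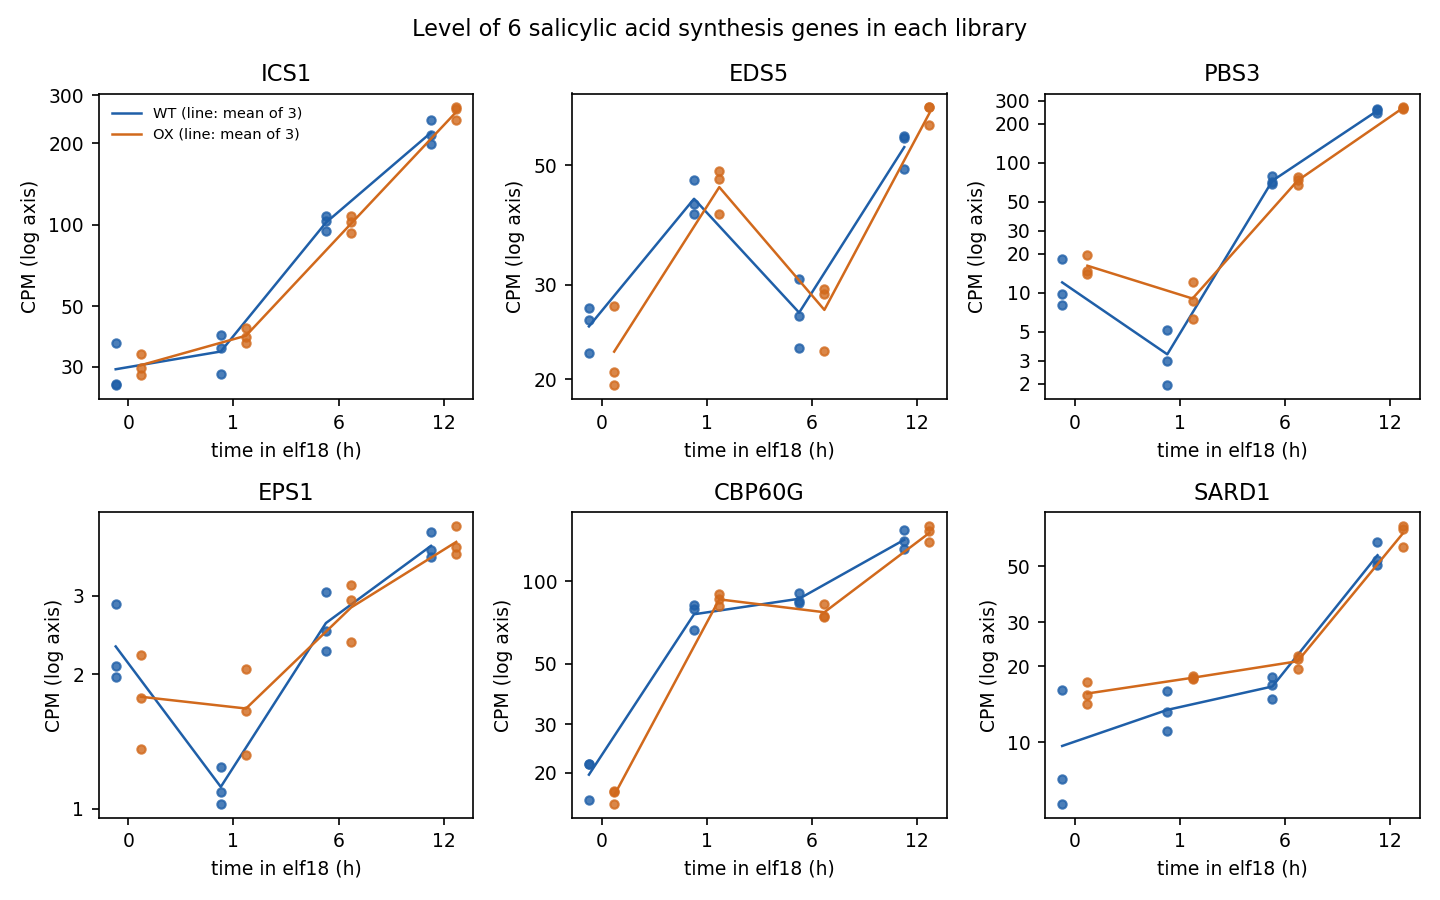
Level of each gene in every library, as CPM on a log axis, against time in elf18 in hours. Points are the 3 libraries of a group, lines join group means, and the highest mean of each gene is OX at 12 h, for example 260.5 CPM for ICS1 and 263.4 CPM for PBS3.

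ICS1 makes the first committed intermediate. At 0 h it stood at 36.51, 25.9 and 25.56 CPM in WT replicates 1, 2 and 3, and at 29.72, 33.33 and 28 CPM in OX. At 1 h the WT libraries held 35.03, 39.09 and 28.16 CPM and the OX libraries 36.66, 38.54 and 41.77 CPM. The 0 h and 1 h libraries overlapped in WT, while in OX every 1 h library was above every 0 h library. Scaled by the library total instead, they overlapped in OX too. The OX libraries then held 33.11, 36.69 and 29.95 CPM at 0 h and 31.39, 33.93 and 37.28 CPM at 1 h. The WT mean so scaled was 33.49 CPM at 0 h and 29.31 CPM at 1 h, and this scaling was not tested. By 6 h ICS1 was at 108.1, 102.8 and 94.49 CPM in WT and at 92.97, 107.5 and 102.5 CPM in OX. By 12 h it was at 213.6, 198.1 and 243.9 CPM in WT and at 270.7, 243.5 and 267.1 CPM in OX. The libraries of 6 h lay clear of those of 1 h, and those of 12 h clear of those of 6 h, in both genotypes. How many of all genes keep times apart in this way was not counted, here or for the other genes. By the test, 67.8% of all genes in WT and 68.8% in OX were called at 1 h against 0 h.

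In WT the change of ICS1 from 0 h was 0.22 ± 0.13 at 1 h (adjusted p = 0.13), 1.79 ± 0.13 at 6 h (adjusted p = 6.9e-11) and, after 12 h, 2.89 ± 0.13 (SE, adjusted p = 1.7e-14). The 1 h value of ICS1 in WT rests on the high library at 0 h: without WT 0 h replicate 1 it was 0.42 (adjusted p = 0.0037), and without WT 1 h replicate 3 it was 0.34 (adjusted p = 0.023, range over the alternatives 0.0037 to 0.44). In OX it rose by 0.36 ± 0.13 at 1 h (adjusted p = 0.015), 1.73 ± 0.13 at 6 h (adjusted p = 1.3e-10) and 3.10 ± 0.13 by 12 h (SE, adjusted p = 5.6e-15). The OX call at 1 h was lost without replicate 3 of every group (0.28, adjusted p = 0.095, range 0.0026 to 0.095). ICS1 more than doubled again between 6 h and 12 h, by 1.10 ± 0.12 in WT and 1.37 ± 0.12 in OX (SE, adjusted p = 2.8e-07 and 1.4e-08).

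EDS5, which carries isochorismate out of the plastid, had a different course. At 0 h its libraries held 27.1, 25.8 and 22.34 CPM in WT and 20.66, 27.4 and 19.48 CPM in OX. At 1 h they held 40.65, 46.97 and 42.33 CPM in WT and 40.58, 47.2 and 48.82 CPM in OX. Every 1 h library was above every 0 h library. At 6 h EDS5 was back at 30.77, 26.19 and 22.85 CPM in WT and 28.76, 29.38 and 22.62 CPM in OX, overlapping the 0 h libraries. At 12 h it stood at 56.61, 49.22 and 56.29 CPM in WT and at 64.04, 59.47 and 64.06 CPM in OX. These were the highest libraries of each genotype. The OX libraries lay above the WT ones, but the difference was not called (adjusted p = 0.32).

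The rise of EDS5 at 1 h was 0.78 ± 0.13 in WT and 1.01 ± 0.13 in OX (SE, adjusted p = 9.8e-06 and 3.4e-07). From 1 h to 6 h it fell by 0.70 on the log2 scale in WT and by 0.75 in OX (adjusted p = 3.6e-05 and 1.6e-05). It then rose by 1.01 ± 0.13 in WT and 1.21 ± 0.13 in OX up to 12 h (SE, adjusted p = 1.1e-06 and 1.1e-07). The difference from 0 h at 6 h was 0.09 ± 0.13 in WT and 0.26 ± 0.13 in OX (SE, adjusted p = 0.57 and 0.082). In OX that value passed when OX 0 h replicate 2 (0.44, adjusted p = 0.0057) or replicate 3 of OX at 6 h (0.38, adjusted p = 0.018) was left out and with length correction (0.33, adjusted p = 0.022), within a range of 0.0057 to 0.26. EDS5 shares part of its locus with AT4G39040 on the other strand. The strand setting of the counts is not given in the sources used here. AT4G39040 stood at 61.95, 84.55, 47.08 and 53.64 CPM in WT at the 4 times, against 25.08, 43.32, 26.6 and 54.04 CPM for EDS5.

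PBS3, which makes the glutamate conjugate, had the widest range of the 6 genes. At 0 h it was at 18.18, 9.771 and 8.053 CPM in WT and 14.72, 19.66 and 14.02 CPM in OX. At 1 h it had fallen to 2.983, 5.154 and 1.934 CPM in WT and to 6.246, 8.681 and 12.12 CPM in OX. No 1 h library reached any 0 h library of its genotype, and the OX libraries lay above the WT libraries at 1 h. At 6 h PBS3 stood at 78.72, 71.02 and 68.4 CPM in WT and 67.39, 77.15 and 74.16 CPM in OX. At 12 h it stood at 256.1, 239.5 and 260.2 CPM in WT and 266.7, 262.2 and 261.4 CPM in OX. The mean at OX 12 h was 78.46 times the mean at WT 1 h.

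Against 0 h, PBS3 fell by 1.81 on the log2 scale at 1 h in WT (SE 0.28, adjusted p = 6.4e-06) and by 0.89 in OX (SE 0.25, adjusted p = 0.0033). It then rose above 0 h by 2.58 ± 0.24 at 6 h (adjusted p = 7.2e-09) and 4.37 ± 0.26 by 12 h in WT (SE, adjusted p = 1.4e-12). In OX these rises were 2.17 ± 0.24 and 4.02 ± 0.25 (SE, adjusted p = 8.5e-08 and 4.1e-12). All 6 of these calls of PBS3 held under each of the alternatives run.

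EPS1, which speeds the last step, was the least abundant. At 0 h it was at 2.083, 2.872 and 1.975 CPM in WT and at 1.767, 2.214 and 1.363 CPM in OX. At 1 h it was at 1.089, 1.242 and 1.024 CPM in WT and at 1.32, 2.054 and 1.655 CPM in OX. The WT libraries of 1 h lay below all those of 0 h, whereas in OX the 2 times overlapped. The libraries held 2.258, 2.506 and 3.056 CPM in WT and 2.933, 2.369 and 3.174 CPM in OX at 6 h. At 12 h they held 4.183, 3.664 and 3.805 CPM in WT and 4.306, 3.722 and 3.863 CPM in OX. The 12 h libraries were above all others.

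EPS1 fell by 1.06 on the log2 scale at 1 h in WT (SE 0.20, adjusted p = 9.5e-05), and its value in OX was -0.12 ± 0.19 (SE, adjusted p = 0.6). At 6 h it differed from 0 h by 0.12 ± 0.17 in WT (adjusted p = 0.59) and by 0.61 ± 0.18 in OX (SE, adjusted p = 0.007). The OX value was 0.45 without replicate 3 of every group (adjusted p = 0.11, range 0.001 to 0.11). At 12 h EPS1 was higher than at 0 h by 0.73 ± 0.17 in WT and 1.11 ± 0.18 in OX (SE, adjusted p = 0.00064 and 7.2e-06).

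CBP60G, the calmodulin-binding regulator, had risen at the first time sampled, as had EDS5. Its 0 h libraries held 21.54, 15.91 and 21.54 CPM in WT and 17.04, 15.37 and 17.14 CPM in OX. After 1 h they held 79.39, 81.68 and 66.4 CPM in WT and 86.58, 90 and 81.29 CPM in OX. Every 1 h library of CBP60G was above every 0 h library. At 6 h CBP60G was at 90.77, 84.92 and 83.49 CPM in WT and at 74.3, 82.46 and 74.62 CPM in OX. There every OX library was below every WT library, and the difference was not called (adjusted p = 0.49). At 12 h it was at 140.9, 131.3 and 153.6 CPM in WT and at 159.5, 139.3 and 152.7 CPM in OX.

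The rise of CBP60G at 1 h was 1.96 ± 0.11 in WT and 2.38 ± 0.11 in OX (SE, adjusted p = 2.3e-13 and 1.4e-14). Between 1 h and 6 h it differed by 0.19 ± 0.10 in WT and -0.16 ± 0.10 in OX (SE, adjusted p = 0.1 and 0.17), so no change was called. The WT value passed without WT 0 h replicate 2 (adjusted p = 0.047) and after thinning (0.22, adjusted p = 0.046, range 0.046 to 0.45). From 6 h to 12 h CBP60G rose by 0.71 ± 0.10 in WT and 0.96 ± 0.10 in OX (SE, adjusted p = 5.5e-06 and 1.1e-07).

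SARD1, the regulator that works beside CBP60G, made most of its rise after 6 h. At 0 h it was at 16.18, 7.146 and 5.698 CPM in WT and 14.14, 17.38 and 15.34 CPM in OX. Only WT replicate 1 reached the OX libraries. At 1 h it was at 13.24, 16.02 and 11.09 CPM in WT and 17.75, 18.05 and 18.3 CPM in OX, and at 6 h at 16.84, 18.22 and 14.9 CPM in WT and 21.32, 19.61 and 21.97 CPM in OX. At these 2 times every OX library was above every WT library, but neither difference was called (adjusted p = 0.3 and 0.56). How many of all genes separate the genotypes in this way was not counted, here or for the other genes. At 12 h SARD1 stood at 52.91, 50.65 and 62.05 CPM in WT and at 70.3, 59.37 and 72.16 CPM in OX.

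From 6 h to 12 h SARD1 rose by 1.72 ± 0.22 in WT and 1.68 ± 0.22 in OX (SE, adjusted p = 1.7e-06 and 2.4e-06). Before that its differences from 0 h were 0.45 ± 0.23 at 1 h (adjusted p = 0.084) and 0.76 ± 0.22 by 6 h in WT (SE, adjusted p = 0.006). Without WT 0 h replicate 1 the 1 h value was 1.06 (adjusted p = 1.7e-06, range 1.7e-06 to 0.35). With length correction it was 0.52 (adjusted p = 0.047). The 6 h value was 1.37 without WT 0 h replicate 1 and 0.59 without replicate 3 of every group (adjusted p = 0.076, range 4.9e-08 to 0.076). In OX the differences were 0.21 ± 0.22 and 0.42 ± 0.22 (SE, adjusted p = 0.41 and 0.1). Scaled by the library total, the OX mean was 17.1 CPM at 0 h and 15.81 CPM at 1 h. The 6 h value in OX passed with only the libraries compared (adjusted p = 0.0061), without WT 0 h replicate 1 (0.44, adjusted p = 0.0031) and without replicate 3 of WT at 0 h (0.44, adjusted p = 0.048). The range was 0.0031 to 0.24. Over the 12 h, SARD1 rose by 2.47 ± 0.23 in WT (SE, adjusted p = 1.9e-09) and to 4.299 times its 0 h level in OX (adjusted p = 1.8e-08), and the WT value was 3.09 without WT 0 h replicate 1 (adjusted p = 1e-13). From 1 h to 6 h it differed by 0.30 in WT (adjusted p = 0.23), with adjusted p = 0.028 when that library was left out and 0.041 with only the libraries compared. SARD1 overlaps AT1G73790 on the other strand, whose level was 6.25 CPM at 0 h and 11.12 CPM at 12 h in WT.

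**Figure D2:**
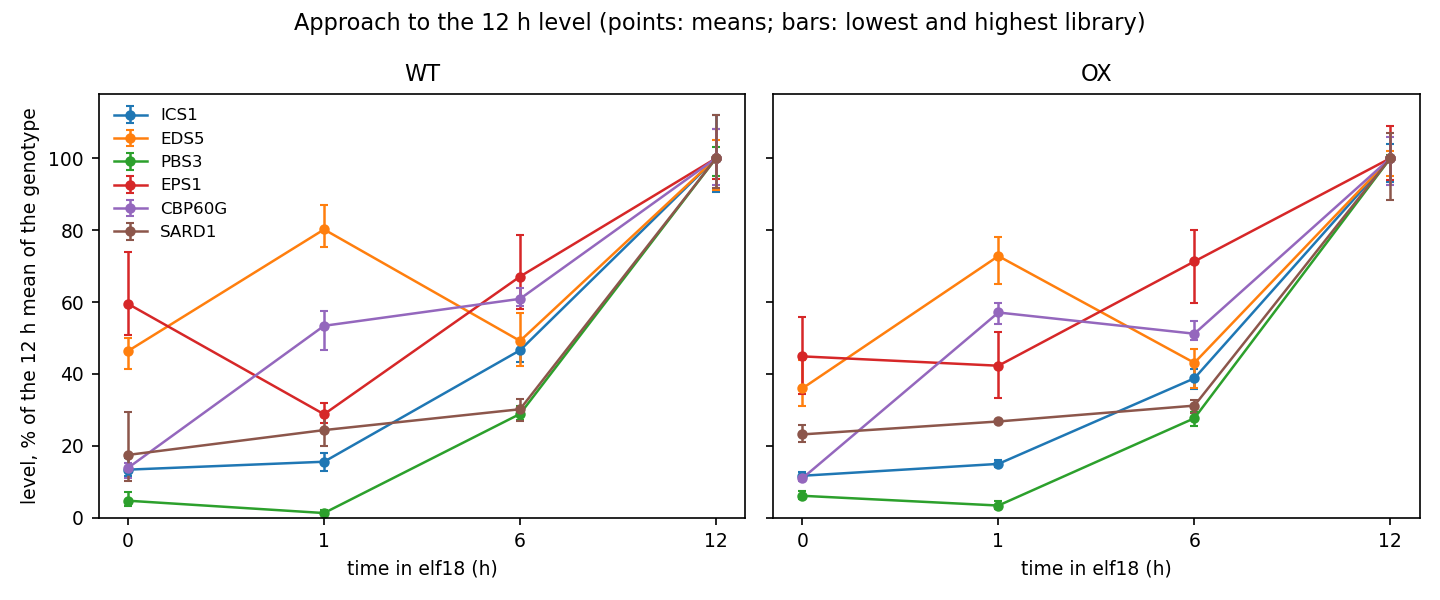
Level of each gene as a percentage of its 12 h mean in the same genotype, against time in elf18 in hours. Points are means of 3 libraries and bars reach from the lowest to the highest library, with CBP60G at 53.4% and PBS3 at 1.33% after 1 h in WT.

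Set against their own 12 h means, the 6 genes approached it at different times. At 1 h in WT, CBP60G was at 53.4% and EDS5 at 80.2% of the 12 h mean, while ICS1 was at 15.6%, SARD1 at 24.4%, EPS1 at 28.8% and PBS3 at 1.33%. At 6 h ICS1 had reached 46.6%, PBS3 28.9%, SARD1 30.2% and CBP60G 60.9%, and EDS5 had dropped to 49.2%. In OX at 1 h, CBP60G was at 57.1%, EDS5 at 72.8%, PBS3 at 3.42% and EPS1 at 42.3%. At 6 h in OX, CBP60G was at 51.2% and EDS5 at 43.1%. The plot of levels as a share of the 12 h mean shows EDS5 as the gene that came down between 1 h and 6 h in both panels.

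Over the 6 genes and 6 comparisons with 0 h, 28 of 36 tests passed, 25 with a higher and 3 with a lower value. The lower ones were PBS3 and EPS1 in WT and PBS3 in OX, all at 1 h. Of all genes, 67.8%, 57.8% and 72.5% were called at 1 h, 6 h and 12 h in WT and 68.8%, 58.9% and 70% in OX. In WT, 2 genes were higher and 2 lower at 1 h (background 35.2% and 32.6%), and 4 were higher and 0 lower at 6 h (29.8% and 28.1%). In OX it was 3 and 1 at 1 h (35.2% and 33.7%) and 4 and 0 at 6 h (30.1% and 28.8%). Between 6 h and 12 h all 6 rose in each genotype, against 26.4% of genes rising and 26.5% falling in WT (52.9% called), and 20.2% and 17.7% in OX (37.9% called). In that step EPS1 in OX was the least firm, at 0.50 ± 0.17 (SE, adjusted p = 0.023). With OX 6 h replicate 2 left out it was 0.38 (adjusted p = 0.13) and with OX 12 h replicate 1 left out 0.43 (adjusted p = 0.1). Without replicate 3 of every group it was 0.57 (adjusted p = 0.063, range 0.016 to 0.13). Between 1 h and 6 h, 3 genes rose and 1 fell in each genotype. The risers were ICS1, PBS3 and EPS1, and the one that fell was EDS5. The background of that step was 34.7% higher and 34.4% lower in WT (69.1% called), and 34.4% and 33.5% in OX (67.9% called). EPS1 in OX did not pass there when replicate 1 of OX at 1 h, replicate 1 of OX at 6 h and replicate 3 of WT at 12 h, which an earlier account of these data set apart, were left out together (0.48, adjusted p = 0.069, range 0.00026 to 0.069).

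Few differences between OX and WT passed in these genes. Of 24 tests at single times 1 passed, that of PBS3 at 1 h, where 5.7% of all genes were called. PBS3 stood at 9.016 ± 2.95 CPM in OX and 3.357 ± 1.64 CPM in WT (SD, n = 3), so that OX was 1.33 ± 0.29 higher in log2 (SE, adjusted p = 0.0068). All 3 OX libraries were above all 3 WT libraries. Without replicate 3 of every group the PBS3 value was 0.92 (adjusted p = 0.15, range 0.00079 to 0.15). At 6 h and 12 h PBS3 differed by 0.00 ± 0.22 and 0.06 ± 0.22 (SE, adjusted p = 1 and 0.89). Of all genes 14.6% were called at 0 h, 1.52% at 6 h and 1.65% at 12 h, and of the 6 genes 0 were called at each of these times. At an unadjusted p under 0.05 there were 2, 0 and 1 of the 6, and of all 21015 genes 5680, 2995 and 4372. With DESeq2 SARD1 passed at 0 h, and 0 of the 6 genes did at 6 h or 12 h.

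SARD1 was higher in OX at all 4 times in group mean, by 0.66 ± 0.23 at 0 h, 0.41 ± 0.23 at 1 h, 0.32 ± 0.22 at 6 h and, by 12 h, 0.29 ± 0.21 (SE). The adjusted p values were 0.053, 0.3, 0.56 and 0.43, so no single time passed. Whether SARD1 passed at 0 h depended on 1 library and also on the test and model used. Without WT 0 h replicate 1 the SARD1 difference was 1.26 (adjusted p = 1.6e-06). It also passed with DESeq2 (0.68, adjusted p = 0.025) and with the replicate block (0.68, adjusted p = 0.047), within a range of 1.6e-06 to 0.4. The 1 h difference of SARD1 had adjusted p = 0.034 without that library (0.43, range 0.034 to 0.56).

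Averaged over the 4 times, 2 of the 6 genes differed between the genotypes, where 13.2% of all genes were called. SARD1 was higher in OX by 0.42 ± 0.11 and PBS3 by 0.45 ± 0.12 (SE, n = 12 libraries a genotype, adjusted p = 0.013 and 0.016). Both calls were lost without replicate 3 of every group, with 0.33 and 0.32 (adjusted p = 0.16 and 0.19). The ranges of adjusted p were 1.2e-06 to 0.16 for SARD1 and 0.00047 to 0.19 for PBS3. At 0 h, 1 h, 6 h and 12 h the PBS3 differences were 0.41, 1.33, 0.00 and 0.06, so the average is not shared by the last times. ICS1 averaged 0.12 ± 0.06 higher (SE, adjusted p = 0.23), and without the high library of WT at 0 h 0.17 (adjusted p = 0.029, between 0.029 and 0.57 over the alternatives). EDS5 differed by 0.04 ± 0.06, EPS1 by 0.10 ± 0.09 and CBP60G by -0.04 ± 0.05 (SE, adjusted p = 0.77, 0.56 and 0.71).

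**Figure D3:**
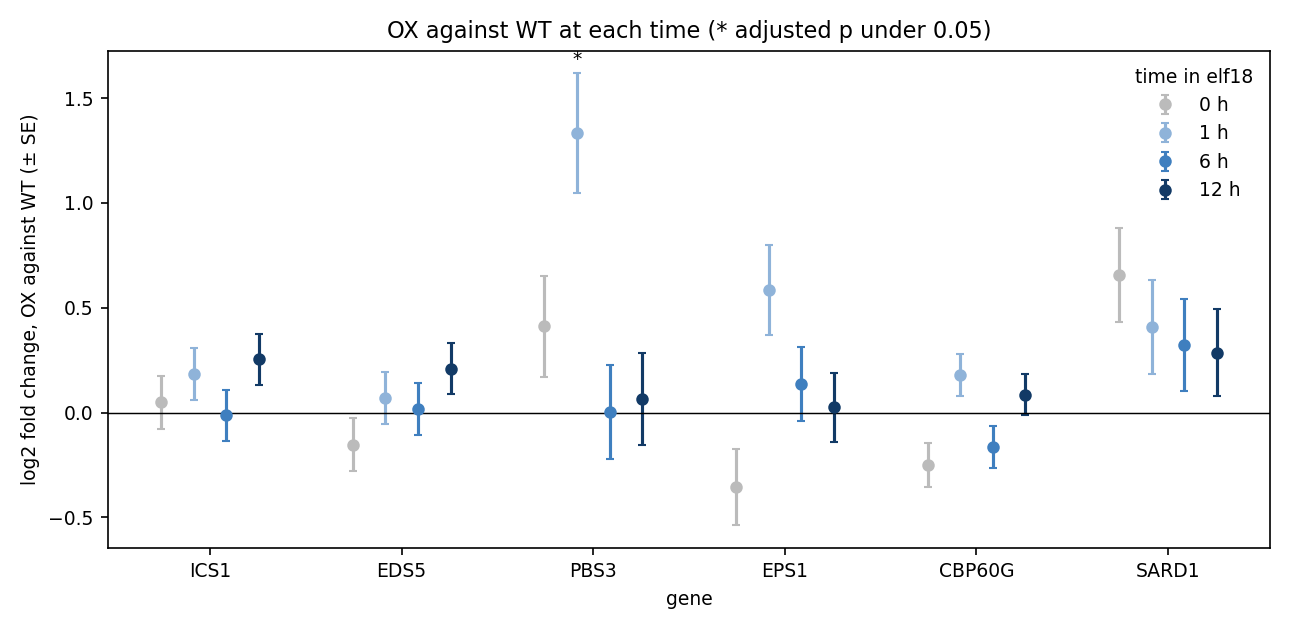
Log2 fold change of OX against WT for each gene at 0 h, 1 h, 6 h and 12 h, with bars of 1 SE from the edgeR fit. The star marks the only test that passed, PBS3 at 1 h (1.33), and SARD1 lies above 0 at all 4 times.

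The other genes at 0 h lay on either side of 0. At 0 h PBS3 differed by 0.41 ± 0.24 (SE, adjusted p = 0.29), which was 0.85 without replicate 1 of WT (adjusted p = 0.0096, range 0.0096 to 0.65). CBP60G differed by -0.25 ± 0.11 (SE, adjusted p = 0.13) and passed without replicate 2 of WT (-0.38, adjusted p = 0.014, range 0.014 to 0.43). ICS1 was at 0.05, EDS5 at -0.15 and EPS1 at -0.36 (adjusted p = 0.86, 0.48 and 0.21). At 12 h, where the OX means of all 6 genes were the higher ones, the differences ran from 0.02 in EPS1 to 0.29 in SARD1, with ICS1 at 0.25 ± 0.12 and EDS5 at 0.21 ± 0.12 (SE, adjusted p = 0.23 and 0.32).

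Whether the response itself differed between the genotypes was tested by the difference of the changes. Of 30 such tests 1 passed, EPS1 at 1 h against 0 h (0.94 ± 0.28, SE, adjusted p = 0.029), where 12.7% of all genes were called. EPS1 had fallen by 1.06 in WT and its value in OX was -0.12. The call was lost under 8 alternatives, with adjusted p from 0.053 to 0.16. For WT, these were leaving out replicate 2 at 0 h (0.75, adjusted p = 0.1) and replicates 1 or 3 at 1 h (0.92 in each case, adjusted p = 0.071 and 0.053). For OX, they were leaving out replicates 1 or 3 at 0 h (0.92 and 0.85, adjusted p = 0.058 in each case) and replicate 2 at 1 h (0.73, adjusted p = 0.11). Without replicate 3 of every group the value was 0.89 (adjusted p = 0.16), and with only the libraries compared 0.96 (adjusted p = 0.08). The full range was 0.011 to 0.16. For 6 h and 12 h against 0 h the background was 6.34% and 5.52%, and between treated times 0.371% and 0.019%. PBS3 differed in its 1 h response by 0.92 ± 0.37 (SE, adjusted p = 0.11). This was 0.49 without the high library of WT at 0 h (adjusted p = 0.31), and passed without WT 0 h replicate 3 (1.13, adjusted p = 0.044) and without replicate 2 of WT at 1 h (1.35, adjusted p = 0.027, all between 0.027 and 0.41).

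CBP60G came next to the threshold, with a 1 h response larger in OX by 0.43 ± 0.15 (SE, adjusted p = 0.055). It passed under 12 alternatives, with DESeq2 (adjusted p = 0.04) and without WT 0 h replicate 2 (0.58, adjusted p = 0.0052) among them, in a range of 0.0052 to 0.28. For SARD1 the response in OX minus that in WT was -0.25 ± 0.32 at 1 h, -0.33 ± 0.31 at 6 h and, by 12 h, -0.37 ± 0.31 (SE, adjusted p = 0.67, 0.62 and 0.53). Without WT 0 h replicate 1 these SARD1 values were -0.83, -0.93 and -0.98 (adjusted p = 0.0037, 0.0018 and 0.0013), and the highest adjusted p of any alternative was 1. In the same setting the 6 h against 1 h response of PBS3 passed, at -1.34 (adjusted p = 0.037, main value -1.33 with adjusted p = 0.13).

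Levels of different genes were set side by side per kilobase of spliced transcript (RPKM). In WT at 12 h PBS3 had 111.2 RPKM, ICS1 103.1, CBP60G 61.9, EDS5 23.9, SARD1 23.03 and EPS1 2.326. PBS3 and ICS1 are not ordered by these values, since PBS3 ran from 0.998 to 1.13 times ICS1 in these libraries. EDS5 and SARD1 are not ordered by these values, since in the FPKM values deposited by the authors SARD1 had 36.49 and EDS5 29.23. The sum over the 6 genes was 44.21 ± 9.03 RPKM in WT at 0 h, 76.07 ± 8.75 at 1 h, 138.1 ± 8.99 at 6 h and 325.4 ± 24.2 at 12 h (SD, n = 3).

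Ratios of these levels within a library changed with time. PBS3 was at 0.371 ± 0.087 times ICS1 in WT at 0 h, 0.0891 ± 0.0307 at 1 h, 0.668 ± 0.0192 at 6 h and 1.08 ± 0.0743 at 12 h (SD, n = 3). In OX this ratio was 0.495 ± 0.0497, 0.214 ± 0.0561, 0.675 ± 0.00371 and 0.948 ± 0.0512 (SD, n = 3). The deposited FPKM values in OX at 12 h were 150.8 for PBS3 and 141.7 for ICS1, so these are not ordered there. The ratio of CBP60G to SARD1 was 2.56 ± 1.3 at 0 h, 5.95 ± 0.538 at 1 h, 5.45 ± 0.516 at 6 h and 2.69 ± 0.0984 at 12 h in WT (SD, n = 3). In OX it was 1.12 ± 0.173, 4.98 ± 0.301, 3.86 ± 0.464 and 2.35 ± 0.122 (SD, n = 3). The deposited FPKM values put CBP60G below SARD1 in OX at 0 h (8.855 against 10.08), so the 2 genes are not ordered there. In WT at 0 h these values were 10.57 and 6.163. ICS1 stood at 19.3 ± 8.55 times its paralog ICS2 at 0 h in WT and at 234 ± 14.6 times at 12 h (SD, n = 3). ICS2 went from 1.542 ± 0.332 to 0.8941 ± 0.147 CPM (SD, n = 3), and reads shared by both paralogs may be split between them.

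The 8 group means order as follows. For ICS1, PBS3, EPS1, CBP60G and SARD1 both 12 h groups had the highest means, clear of every other group, and so they had for EDS5, where both 1 h groups came next. The WT and OX libraries at 12 h overlapped for ICS1, EPS1, CBP60G and SARD1. For PBS3 and EDS5 they did not, yet neither difference was called (adjusted p = 0.89 and 0.32). The share of all genes without overlap was not counted. At the bottom were WT at 1 h for PBS3 and EPS1, WT at 0 h for ICS1 and SARD1, and OX at 0 h for EDS5 and CBP60G. The highest mean was 8.885 times the lowest for ICS1, 2.777 for EDS5, 3.546 for EPS1, 9.11 for CBP60G and 6.954 for SARD1. Without WT 0 h replicate 1, an alternative added after these values were seen, it was 10.48 for SARD1 and 10.12 for ICS1, above that of CBP60G.

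Across the 8 group means of log2 CPM, PBS3 and EPS1 had the most similar profiles of any pair (Pearson r = 0.962, n = 8 groups). ICS1 and PBS3 had r = 0.942 and ICS1 and SARD1 r = 0.905. By Spearman rank correlation ICS1 was most like CBP60G (0.952), with 0.786 for PBS3. By Pearson r EDS5 and EPS1 were the least alike, with r = 0.285, whereas by Spearman rank correlation EDS5 and PBS3 were (0.405). These values describe means that share a control time and library scaling, and carry no p. Among 4878 other genes of sufficient level and range, the 3 nearest to PBS3 were AT3G47480, annotated as a calcium-binding EF-hand protein (r = 0.999), AT5G20700 (0.991) and GATA26 (0.99). Nearest to ICS1 were AT1G75170, a Sec14p-like lipid transfer protein (0.997), AT1G13540 (0.995) and ICK3, a cyclin-dependent kinase inhibitor (0.994). For CBP60G they were IDA, the peptide signal of organ abscission (0.997), AT1G36622 (0.994) and AKN2, an APS kinase (0.994). SARD1 was closest to AT5G45500 (0.994), the transcription factor gene WRKY51 (0.984) and AT2G41090, another EF-hand protein (0.983). EDS5 was closest to the NAD(P)H dehydrogenase gene NDA2 (0.99), CYP71B6 (0.984) and AT4G01895, annotated as related to NIMIN-1 (0.983). EPS1 was closest to the sulfate transporter gene SULTR1;2 (0.991), CRF11 (0.986) and AT3G25640 (0.985). The mean profile of all 6 was nearest to AT1G13530 (0.996), AT1G44130 (0.993), AT5G10410 (0.992), NIP3;1 (0.992) and ARPN (0.991).

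Lists of other genes that bear on salicylic acid were counted against a background, in WT, of 35.2% of all genes higher and 32.6% lower at 1 h, and 35.2% higher and 37.4% lower at 12 h. Of 10 genes on other routes to it (ICS2, a relative of EDS5, chorismate mutases, phenylalanine ammonia-lyases and AIM1), 6 were higher and 4 lower at 12 h in WT, with a median of 0.392. The ammonia-lyase gene PAL1, of phenylpropanoid synthesis, rose by 3.33 ± 0.15 and PAL2 by 1.77 ± 0.08 (SE, adjusted p = 9.9e-15 and 6.3e-15). ICS2 fell by 0.80 on the log2 scale (adjusted p = 0.005) and was named after its value was seen. At 1 h 3 of the 10 were higher and 3 lower. The 6 other genes of the CBP60 type had 1 higher and 2 lower at 12 h, with a median of -0.0984. AT2G24300 rose by 0.79 ± 0.11 and AT2G18750 fell by 0.67 on the log2 scale (adjusted p = 1.6e-06 and 1.2e-07). At 1 h AT5G57580 rose by 1.24 ± 0.07 (SE, adjusted p = 5.6e-13) and AT2G24300 fell by 0.92 on the log2 scale (adjusted p = 6.8e-07), and of the 6 genes 3 were higher and 1 lower.

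Of 13 activators that act on ICS1 or upstream of it, 7 were higher and 2 lower at 1 h in WT, and 8 were higher and 5 lower at 12 h, with medians of 0.644 and 1.01. WRKY28, whose product binds the ICS1 promoter, went from 4.785 ± 0.909 to 148.3 ± 26.7 CPM within 1 h in WT (SD, n = 3), a rise of 4.96 ± 0.15 (SE, adjusted p = 1.4e-17). It was back at 6.835 ± 0.432 CPM at 6 h, a time at which ICS1 had risen. The lipase-like gene PAD4, a partner of EDS1, rose by 1.66 ± 0.09 at 1 h (SE, adjusted p = 4.5e-13). EDS1 rose by 1.64 ± 0.07 and NDR1, needed for resistance through several immune receptors, by 1.59 ± 0.10 at 12 h (SE, adjusted p = 1.3e-14 and 4e-12).

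Of 13 repressors of ICS1 or of the pathway, 6 were higher and 3 lower at 1 h in WT, and 3 were higher and 6 lower at 12 h, with medians of 0.321 and -0.144. The 6 of 13 lower at 12 h stand beside 37.4% of all genes. CAMTA3, a calmodulin-binding repressor of CBP60G and SARD1, rose by 0.97 ± 0.10 at 1 h (SE, adjusted p = 3.4e-08). The ethylene response regulator gene EIN3, whose product represses ICS1, rose by 0.73 ± 0.06 (SE, adjusted p = 1.2e-09). At 12 h NAC055 fell by 2.70 on the log2 scale and WRKY54 rose by 2.64 ± 0.18 (adjusted p = 3.5e-11 and 1.9e-11). All 3 genes of the pipecolate branch, which makes a signal of systemic resistance, rose at 12 h, FMO1 by 3.16 ± 0.24 and AT5G52810 by 2.81 ± 0.09 (SE, adjusted p = 1.1e-10 and 1.1e-16). At 1 h, 0 of these 3 were higher and 2 lower, FMO1 with a fall by 1.67 on the log2 scale and ALD1, of pipecolic acid synthesis, with -0.86 ± 0.35 (SE, adjusted p = 6.5e-05 and 0.033). The ALD1 value was -0.28 when replicate 2 of WT at 0 h was left out (adjusted p = 0.49, with 0.0086 the lowest over the alternatives). Of 6 genes that respond to salicylic acid or read it, 4 were higher and 0 lower at 12 h. NIMIN1, whose product binds the salicylic acid receptor NPR1, rose by 5.84 ± 0.19 and DMR6, for an enzyme that hydroxylates salicylic acid, by 2.09 ± 0.12 (SE, adjusted p = 1.1e-16 and 5.5e-13). At 1 h 2 of the 6 were higher and 2 lower. NPR1 itself rose by 2.05 ± 0.08 and PR1, a marker of salicylic acid response, fell by 1.74 on the log2 scale (adjusted p = 1.6e-15 and 2.7e-05).

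**Figure D4:**
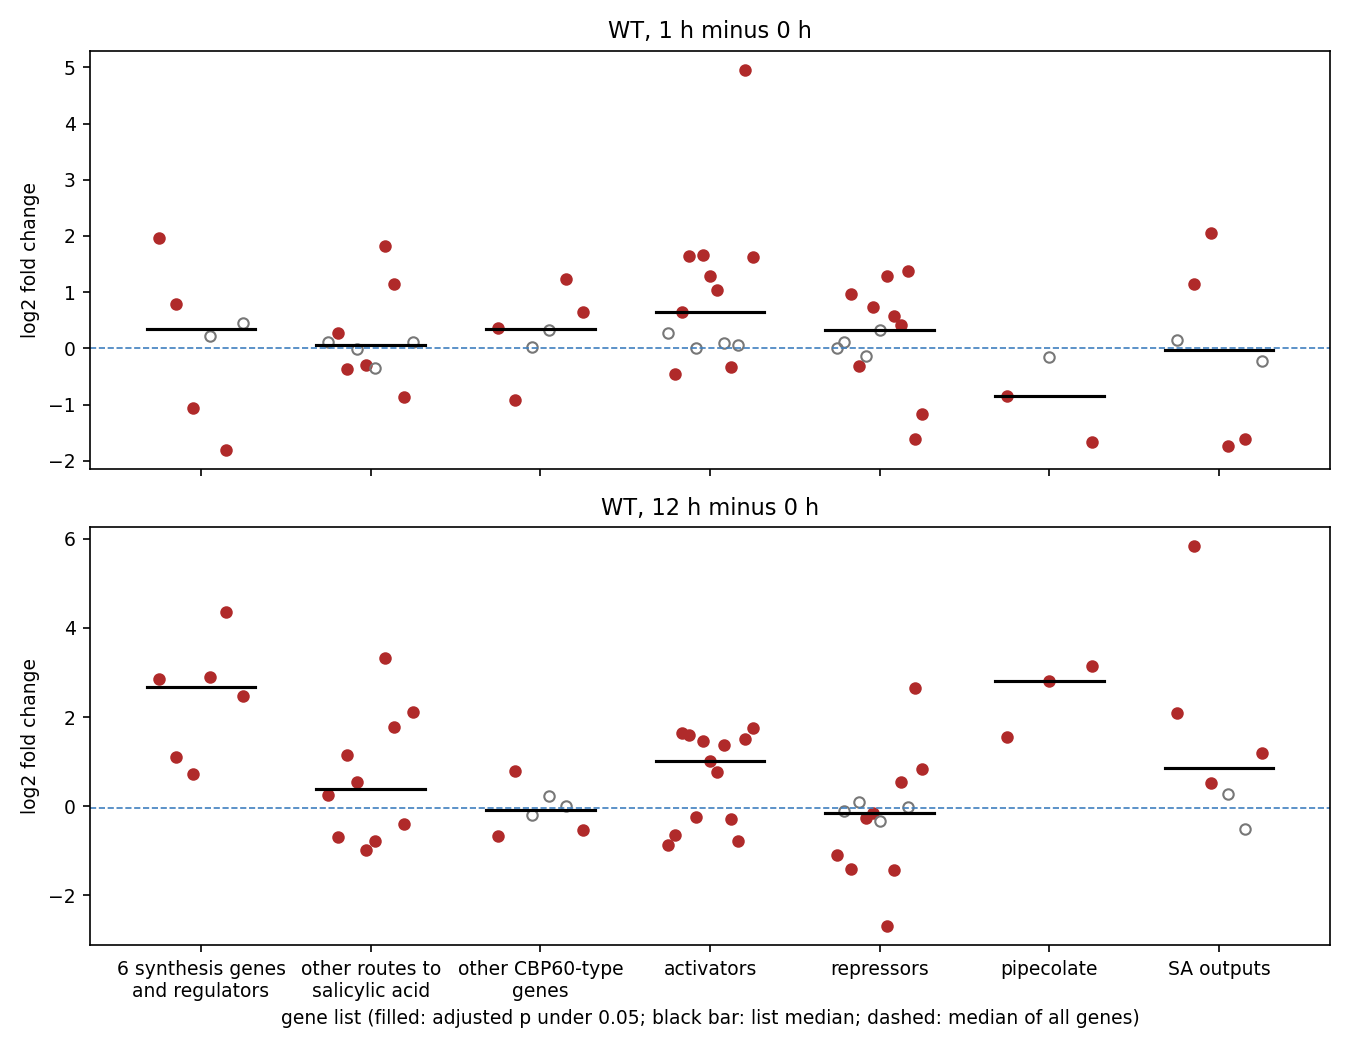
Log2 fold change in WT at 1 h (top) and at 12 h (bottom) against 0 h for the 6 genes and the lists around them. Each point is a gene, filled where its adjusted p is under 0.05, black bars are list medians (2.66 for the 6 genes and -0.0984 for other CBP60-type genes at 12 h), and the dashed line is the median of all genes.

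The plot of the lists places the 6 genes beside these groups. At 12 h the medians were 2.66 for the 6 genes, 2.81 for pipecolate, 1.01 for activators and 0.861 for salicylic acid outputs, and the other lists had medians of 0.392 or less.

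Between the genotypes, averaged over the 4 times, the same lists gave 5 of 6 outputs and 2 of 3 pipecolate genes higher in OX with 0 lower, against 6.71% of all genes higher and 6.54% lower. PR1 was higher by 2.32 ± 0.15, ALD1 by 1.16 ± 0.14, and FMO1 by 0.72 ± 0.13 (SE, adjusted p = 4.4e-10, 7.5e-06 and 0.00058). These calls held under all the alternatives run. Of 13 activators 3 were higher and 0 lower, with EDS1 at 0.17 ± 0.04 and PAD4 at 0.17 ± 0.05 (SE, adjusted p = 0.0023 and 0.014), both lost without replicate 3 of every group (adjusted p = 0.082 and 0.057, ranges 0.00018 to 0.082 and 0.0044 to 0.057). Of 13 repressors 1 was higher and 3 lower, with WRKY54 higher by 0.62 ± 0.10 (SE, adjusted p = 0.00011) and a value of -0.41 ± 0.07 for WRKY40 (SE, adjusted p = 0.00054). Of the other routes 0 were higher and 2 lower, PAL2 at -0.19 ± 0.04 and PAL1 at -0.25 ± 0.07 (SE, adjusted p = 0.0015 and 0.015). The PAL1 call was lost without replicate 3 of every group (-0.23, adjusted p = 0.092) and without the 3 libraries set apart earlier (-0.19, adjusted p = 0.08, range 0.0023 to 0.092).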

How the data were processed

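Read counts per locus were deposited by the authors in 24 columns, 1 per library, per the file headers. A second table deposited by the authors holds FPKM, with a single value for each of the 8 groups and hence no spread. The submitters' processing notes list, without saying what each was used for, the build TAIR10 and the tools Cufflinks 2.1.1, Cuffdiff, TopHat2 2.0.8 and DESeq2. What counted the reads, and with which strand setting, is not given in the sources used here. Per the labels' protocols, libraries were strand-specific and those of a condition were sequenced as a pool.

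Counts were tested with edgeR 4.0.16 (limma 3.58.1, R 4.3.3) in a single quasi-likelihood fit of 24 libraries with 8 group means, TMM scaling and filterByExpr at a minimum count of 10. The call needs a Benjamini-Hochberg adjusted p under 0.05. OX was set against WT at single times and over the 4 times, and within a genotype each later time against 0 h, with the steps between treated times and the difference of these changes between genotypes. The procedure was tested on simulated data. SE is the log2 fold change over the root of the F statistic. RPKM uses the longest spliced transcript of RefSeq TAIR10.1, which matched 21330 loci. No coordinates or sequences are printed because that build differs in name from TAIR10. Alternatives were no filter, DESeq2 1.42.0, edgeR with RLE factors, only the libraries compared, a replicate block, leaving out libraries, a length correction and thinning to 18767661 counts.

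The genes, the lists around them and the libraries left out together were chosen with earlier results of these data known. Named genes are the 6, up to 2 per list with the smallest adjusted p in a comparison, and those of highest r (3 per gene, 5 for the mean profile) among genes whose log2 CPM, with a prior count of 2, had a mean of 1 or more and an SD over groups of 0.5 or more. Of the list of outputs, 1 of 7 loci was not in the count table. The p-values measure the spread between replicates, which the labels call biological, with a single estimate per gene shared by all groups. A library that stands apart thus also bears on tests of groups it is not in. Without WT 0 h replicate 1, SARD1 in OX minus WT at 1 h went from 0.41 to 0.43. Its edgeR adjusted p went from 0.3 to 0.034.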

Additional observations from a re-analysis of the deposited data

Results flagged for a closer look

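The 1 h response of EPS1 differed between the genotypes by a tested difference of changes, with a log2 value of 0.941 (SE 0.28, edgeR adjusted p = 0.029). EPS1 was lower at 1 h than at 0 h in WT, with a mean of 1.118 CPM against 2.31 CPM, and in OX the means were 1.676 and 1.782 CPM. No WT library of 1 h reached a WT library of 0 h, and the OX libraries of both times overlapped. It was the least abundant of the 6 genes, and 8 of the 33 alternatives lost the call.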

How the results depend on the processing

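Of 120 tests of the 6 genes under 33 alternatives, 3850 values kept direction and side of the threshold, 40 gained a call, 19 lost one and 45 changed sign, none of them called in either setting. The comparison averaged over the 4 times could not be run with only its own libraries, since it uses all of them. The cause of these changes was not tested.

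Calls of OX against WT at single times (1 of 24) were 0 without replicate 3 of every group, 2 with DESeq2, and 1 to 4 when 1 library was left out. Over the 4 times (2 of 6) there were 0 without replicate 3 of every group. Differences in response (1 of 30) were 2 with no filter, length correction, thinning or DESeq2, 0 with only the libraries compared or without replicate 3 of every group, and 0 to 5 when 1 library was left out. Calls against 0 h (28 of 36) ran from 25 to 31 and between treated times (20 of 24) from 19 to 21. Calls over the pathway lists (445) ran from 362 to 465. Genes called for OX against WT, 3072, 1197, 319 and 346 at the 4 times, ran from 1416 to 3936, 362 to 1487, 103 to 574 and 49 to 1018. Over the 4 times the number, 2784, ran from 1272 to 3359, and for OX from 6 h to 12 h, 7962, from 5239 to 9450. For differences of response (2668, 1333 and 1160 against 0 h, 78 and 4 between treated times) it ran from 1007 to 3299, 442 to 2244, 248 to 1705, 14 to 226 and 0 to 39.

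The replicate numbers were not shown to pair the libraries: deviations of same-numbered libraries correlated between -0.341 and 0.544 (median 0.0506), and in 1 of 28 group pairs all were over 0.1. With the replicate block, calls were 2 at single times, 2 over the 4 times, 28 against 0 h, 20 between treated times, 1 for the response and 464 over the lists. The block changed 1 call of the 6 genes and the number of genes called by 1.01 to 1.68 times.

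Sign changes near 0 were as follows. For OX minus WT at 6 h, ICS1 was 0.000642 with length correction, 0.011 thinned, 0.00182 with only the libraries compared and 0.0489 without the 3 libraries set apart in an earlier account (OX 1 h replicate 1, OX 6 h replicate 1, WT 12 h replicate 3), and EDS5 was -0.0264 in the last. PBS3 there was -0.0376 without replicate 3 of every group. EPS1 in OX at 1 h was 0.0272 thinned and 0.0786 without the 3 libraries. Without replicate 3 of every group EPS1 in WT at 6 h was -0.0558. In differences of response, PBS3 from 6 h to 12 h was -0.0155 with length correction, and ICS1 at 6 h was 0.00149 and SARD1 from 6 h to 12 h 0.0594 without the 3 libraries. Without replicate 3 of every group, EDS5 from 1 h to 6 h was 0.0253 and SARD1 from 6 h to 12 h 0.0779. Leaving out 1 library, OX minus WT ran from -0.0369 to 0.243 for ICS1 at 0 h, and at 6 h from -0.0554 to 0.0519 for ICS1, -0.0644 to 0.149 for EDS5 and -0.0366 to 0.0746 for PBS3. It ran from -0.0457 to 0.0863 for EPS1 at 12 h and from -0.000746 to 0.0727 for EDS5 over the 4 times. Changes from 0 h ran from -0.0275 to 0.186 for EDS5 in WT at 6 h and from -0.313 to 0.0837 for EPS1 in OX at 1 h. Differences of response ran from -0.0408 to 0.259 for ICS1 at 1 h, -0.833 to 0.0038 for SARD1 at 1 h and -0.247 to 0.0326 for ICS1 at 6 h. From 1 h to 6 h they ran from -0.152 to 0.0611 for EDS5 and -0.235 to 0.0112 for SARD1. From 6 h to 12 h they ran from -0.014 to 0.0973 for PBS3 and -0.115 to 0.0367 for SARD1.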
